A study of Mus musculus with 18 samples.

Results

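The 10 genes described here build the peptide-loaded MHC class I molecule of the mouse. They are the heavy chain genes H2-K1, H2-D1 and H2-Q7, the light chain gene B2m, the peptide transporter genes Tap1 and Tap2, the loading factor Tapbp, the immunoproteasome subunits Psmb8 and Psmb9, and the class I transactivator Nlrc5. They were chosen by name, for their place in the class I pathway, from the 55487 genes of the count files, and each was found through its Ensembl identifier. All 10 had enough reads to be among the 13600 genes tested.

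MHC class I molecules show fragments of the cell's own proteins to cytotoxic T cells, and nearly all nucleated cells carry them. The proteasome cuts proteins into peptides, and its immunoproteasome form, in which Psmb8, Psmb9 and Psmb10 replace the standard catalytic subunits Psmb5, Psmb6 and Psmb7, is induced by interferon. The Tap1/Tap2 transporter moves peptides into the endoplasmic reticulum, where tapasin (Tapbp) holds empty heavy chains beside it until a peptide binds and the heavy chain is stable with beta-2 microglobulin. Nlrc5 acts with the factors bound at the X and Y boxes of class I promoters. Low class I expression is common in prostate tumours.

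Messenger RNA of T23, mouse tumour cells of a prostate adenocarcinoma, was sequenced in 18 libraries, 3 for each of 6 groups. Untreated T23 cells were cultured by themselves or beside either wild-type or SPARC-deficient fibroblasts. The other 3 groups received the androgen receptor antagonist enzalutamide (ENZA), either without fibroblasts, beside fibroblasts, or beside fibroblasts and together with the plant chalcone isoliquiritigenin (ISO). All groups share the T23 cells, and no drug dose, exposure time or solvent control is given in the sources used here. The descriptions of both enzalutamide co-cultures name human fibroblasts, while the titles carry the FIBROB6 name of the wild-type co-culture, so a comparison of treated with untreated co-culture holds only if the fibroblasts were the same. Library titles end in a running number that starts over within the enzalutamide co-culture: its replicates 2 and 3 and all isoliquiritigenin libraries carry the second numbering. The labels do not say that replicates were separate cultures, so p-values measure only the spread between these libraries, which may be technical.

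Libraries held 16.1 to 26.7 M counts, and 18123 to 20154 genes had at least 1 count. In replicate 2 of enzalutamide without fibroblasts 1 ribosomal RNA gene took 26.4% of the counts, so this library stands apart. Vim was between 1891 and 4467 counts per M (CPM) and Col1a1 between 6837 and 12218 CPM, whereas the epithelial markers Epcam, Krt8, Krt18 and Cdh1 stayed at or under 0.736 CPM and the luminal marker Pbsn was 0 throughout. The defining markers of prostate epithelium are therefore near or at 0 in cells labelled adenocarcinoma, and the fibroblast marker list does not tell co-cultured fibroblasts from T23 cells. Sparc, the gene missing from the SPARC-deficient fibroblasts, stood at 3197 ± 9.24 CPM in T23 cells alone, 3069 ± 21.2 CPM with wild-type and 3031 ± 63.7 CPM with SPARC-deficient fibroblasts (mean ± SD, n = 3), which checks no fibroblast genotype because T23 cells themselves carry the transcript. The 16 leukocyte markers summed to 3.65 to 8.47 CPM in all 18 libraries, with Adgre1, Cd3e, Cd3g, Tyrobp and Nkg7 at 0, and Ptprc had at most 4 counts. In these bulk libraries fewer cells of a type and less RNA per cell cannot be told apart.

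8 of the 10 genes lie on chromosome 17 within chr17:33915899-35443773 (GRCm38), the region of the mouse MHC. In order of start they are Tapbp (chr17:33915899-33929292, plus strand), H2-K1 (chr17:33996017-34000347, minus), Psmb9 (chr17:34181987-34187764, minus), Tap1 (chr17:34187553-34197225, plus), Psmb8 (chr17:34197721-34201454, plus), Tap2 (chr17:34203527-34216321, plus), H2-D1 (chr17:35262730-35267499, plus) and H2-Q7 (chr17:35439155-35443773, plus). B2m is at chr2:122147686-122153083 and Nlrc5 at chr8:94434356-94527272, both on the plus strand. The promoters of 6 of the genes hold matches to both the X2 box core and the Y box, and they are printed here. In H2-K1, H2-D1, H2-Q7 and B2m these matches lie 24 or 25 bases apart, X2 first. In the stretch between Tap1 and Psmb9 they lie much further apart. There the Y box match begins 222 and the X2 match 86 bases upstream of the Tap1 start. The lines give the 180 bases upstream of the RefSeq start (GRCm38.p6), 5′ to 3′ on the gene's strand: H2-K1 (chr17:34000348-34000527, minus), H2-D1 (chr17:35262914-35263093, plus), H2-Q7 (chr17:35438975-35439154, plus) and B2m (chr2:122147507-122147686, plus). The last line gives the 225 bases between the RefSeq starts of Psmb9 and Tap1, which are read in opposite directions (chr17:34187331-34187555, plus). The gene coordinates above are from GENCODE, in which Psmb9 starts further upstream and overlaps Tap1. Capitals mark matches, on either strand, to the interferon-stimulated response element, the NF-kB consensus, the X2 box core (TGACG) and the Y box (CCAAT). The gamma-activated site, was searched too and has no match in these stretches.
H2-K1: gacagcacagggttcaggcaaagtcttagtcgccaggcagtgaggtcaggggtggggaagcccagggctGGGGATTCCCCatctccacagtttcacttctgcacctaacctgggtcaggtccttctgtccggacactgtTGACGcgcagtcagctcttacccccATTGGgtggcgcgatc
H2-D1: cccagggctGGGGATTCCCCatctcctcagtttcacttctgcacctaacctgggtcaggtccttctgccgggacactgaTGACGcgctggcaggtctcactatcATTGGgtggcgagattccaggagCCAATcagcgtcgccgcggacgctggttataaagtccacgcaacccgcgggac
H2-Q7: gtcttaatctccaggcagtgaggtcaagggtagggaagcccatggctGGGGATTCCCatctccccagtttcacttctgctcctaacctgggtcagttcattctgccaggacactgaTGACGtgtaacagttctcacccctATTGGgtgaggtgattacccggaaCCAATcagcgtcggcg
B2m: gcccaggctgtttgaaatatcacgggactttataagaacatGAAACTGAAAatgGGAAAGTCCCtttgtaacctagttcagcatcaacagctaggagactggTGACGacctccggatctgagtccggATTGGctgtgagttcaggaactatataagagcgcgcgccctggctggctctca
Tap1 and Psmb9: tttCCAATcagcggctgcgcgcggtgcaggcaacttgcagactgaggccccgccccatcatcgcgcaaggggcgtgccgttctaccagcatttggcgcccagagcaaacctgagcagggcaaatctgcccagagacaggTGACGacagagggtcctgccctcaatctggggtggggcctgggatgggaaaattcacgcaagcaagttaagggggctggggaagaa

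The table of RefSeq promoters (250 bases before to 50 after each start) held 8 of the 10 genes, and Tap2 and Nlrc5 are not in it. In H2-K1, which has 2 starts 14 bases apart and is shown from the outer one, the NF-kB match begins 111 bases upstream, the X2 core 41 and the first Y box, read as ATTGG, 16. The 3 heavy chain promoters hold these matches in the same order and almost the same spacing. From NF-kB to X2 there are 70 bases in H2-K1 and H2-D1 and 69 in H2-Q7, and from X2 to Y there are 25, 25 and 24. B2m also has X2 and Y matches 25 bases apart. Of the 8 genes, B2m alone matched the pattern searched for the interferon-stimulated response element. Each element was searched as 1 fixed pattern, so variant forms were not counted. A promoter without a match, such as those of the heavy chains for this element, may still hold a variant of it. Psmb8 is the 1 gene with a gamma-activated site match, 97 bases upstream. Of all 32851 promoters in the table, 4.51% hold the NF-kB consensus, 20.8% TGACG, 37.4% CCAAT, 3.44% the interferon-stimulated response element and 8.3% the gamma-activated site, against 4, 6, 7, 1 and 1 of the 8 genes. The H2-K1 and H2-D1 NF-kB matches each cover 2 overlapping positions, counted here once per gene. The windows of Tap1 and Psmb9 overlap, and their X2 and Y box matches are the same sites, counted for both genes.

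In T23 cells alone the light chain was the most abundant transcript of the group per kb of exon, and the heavy chains H2-D1 and H2-K1 came next. B2m stood at 1100 ± 14.6 CPM per kb, H2-D1 at 177 ± 2.6, H2-K1 at 164 ± 1.33 and Tapbp at 111 ± 1.91 (mean ± SD, n = 3). Psmb8 followed at 22.9 ± 0.0574, Tap2 at 18.6 ± 0.406 and Tap1 at 10.3 ± 0.73 CPM per kb. Psmb9 at 2.43 ± 0.102 and Nlrc5 at 2.3 ± 0.147 CPM per kb did not differ beyond their spread, and H2-Q7 was lowest at 0.972 ± 0.0633. Per-kb levels divide by the joint length of all annotated exons of a gene, so they understate genes with many unused exons. H2-K1 and H2-D1 together held 94.2 to 96.1% of the reads of all annotated H2-K, H2-D and H2-Q genes in every library. The stimuli best known to raise class I were barely seen as transcripts: Ifng and Tnf had at most 1 count and Ifnb1 at most 2 in any library.

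**Figure D1:**
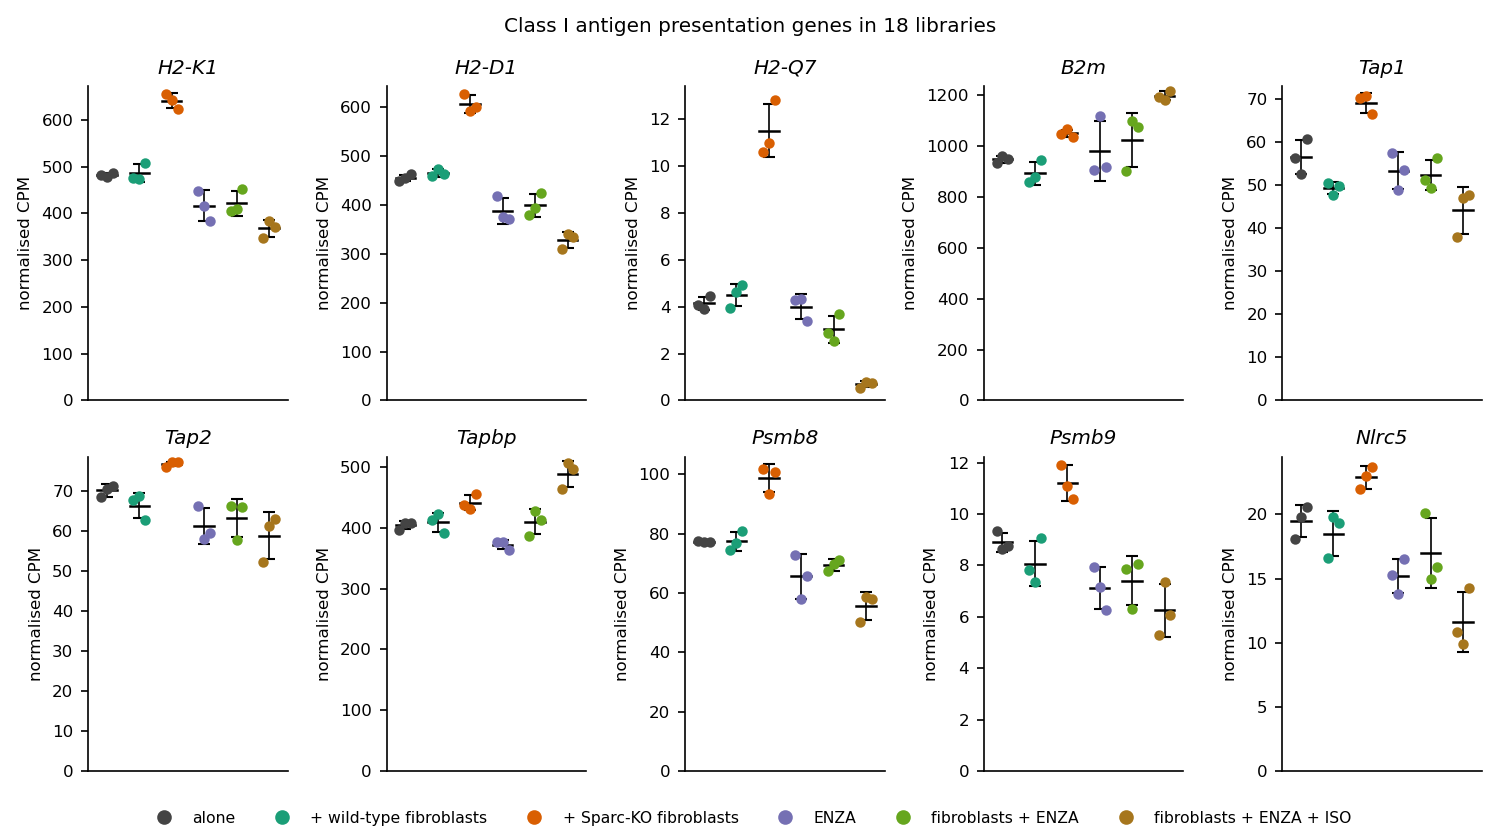
Normalised CPM (y axis, from 0, a scale per gene) of the 10 class I genes in 18 libraries; points are libraries, bars are the mean and whiskers the SD of 3, colours are the 6 groups (Sparc-KO, SPARC-deficient; ENZA, enzalutamide; ISO, isoliquiritigenin). All 10 genes are higher in each library with SPARC-deficient fibroblasts than in each with wild-type fibroblasts, and H2-Q7 is under 1 CPM in the 3 isoliquiritigenin libraries.

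With wild-type fibroblasts no class I gene passed the test against T23 cells alone. H2-K1 was at 475, 474 and 508 CPM with wild-type fibroblasts and 483, 478 and 486 CPM alone, and B2m at 856, 875 and 942 against 932, 957 and 949 CPM. For both genes the groups overlapped. None of the 10 genes was called at an adjusted p under 0.05 by edgeR's quasi-likelihood test, where 0.515% of all genes were called in either direction, 0.257% each way, and none by DESeq2. 1 gene, Tap1, had an unadjusted p under 0.05: its log2 fold change was -0.20 ± 0.08 (SE, adjusted p = 0.364), and its 3 libraries with fibroblasts, at 50.6, 47.8 and 49.8 CPM, lay below the 56.4, 52.7 and 60.7 CPM of cells alone, as did 9.85% of all genes, with 20.5% free of overlap in either direction. The 95% intervals of the log2 fold changes of H2-K1 (-0.11 to 0.13), H2-D1 (-0.09 to 0.15) and B2m (-0.24 to 0.06) bound what such a difference could be.

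With SPARC-deficient in place of wild-type fibroblasts, 7 of the 10 genes rose and none fell. The 3 heavy chains, the light chain, Tap1 and both immunoproteasome subunits were called, against 6.72% of all genes called higher, 4.79% lower and 11.5% in either direction. The median log2 fold change was 0.37 over the 10 genes and -0.005 over all genes tested. In all 10 genes the 3 libraries with SPARC-deficient fibroblasts lay above the 3 with wild-type fibroblasts, as they did for 15.6% of all genes, with 30.4% free of overlap in either direction.

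The classical heavy chains, which present peptide to CD8 T cells, rose by about the same factor. H2-K1 was at 656, 642 and 624 CPM with SPARC-deficient fibroblasts against 475, 474 and 508 CPM with wild-type ones, a log2 fold change of 0.40 ± 0.06 (adjusted p = 7.36e-05). H2-D1 was at 627, 592 and 600 CPM against 459, 473 and 463 CPM, a log2 fold change of 0.38 ± 0.06 (adjusted p = 6.07e-05). Neither pair of groups overlapped, and the level of H2-K1 over H2-D1 per kb stayed at 0.928 ± 0.0217 against 0.917 ± 0.0425.

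The class Ib heavy chain H2-Q7, a Qa-2 gene, had the largest change of the 10. Its levels were 10.6, 11 and 12.8 CPM with SPARC-deficient fibroblasts and 3.96, 4.63 and 4.91 CPM with wild-type ones, 2.54-fold higher (log2 fold change 1.35 ± 0.13, adjusted p = 2.09e-07). The lowest library of the first group lay well above the highest of the second. Of all 50-base windows of the annotated H2-Q7 transcripts, 26.4% also occur in another gene, H2-Q10, H2-Q5, H2-Q6 and H2-K1 foremost, against 12.8% for H2-D1 and 9.63% for H2-K1. How the counting treated reads that match several genes is not stated in the sources used here, so the split between these genes is uncertain. Its neighbours moved the same way: H2-Q6 rose from 1.89 ± 0.25 to 4.95 ± 1.22 CPM (log2 fold change 1.40 ± 0.20, adjusted p = 4.77e-05) and H2-Q5 from 0.762 ± 0.174 to 1.54 ± 0.0901 CPM (1.03 ± 0.26, adjusted p = 0.00965), whereas H2-Q4 stood at 52.3 ± 1.55 against 46.1 ± 3.1 CPM (0.18 ± 0.08, adjusted p = 0.165). Summed over all H2-K, H2-D and H2-Q genes, heavy chain reads rose from 1006 ± 22 to 1320 ± 31.3 CPM (log2 fold change 0.39 ± 0.06, adjusted p = 6.13e-05). The sum does not depend on how reads are split among these genes. H2-K1 and H2-D1 made up 94.5% of it in both groups, so it cannot settle the change of H2-Q7. Reads dropped in counting, or shared with genes outside the sum, are not recovered by it.

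B2m, the light chain shared by all class I molecules, rose too. It was at 1047, 1063 and 1035 CPM against 856, 875 and 942 CPM, a log2 fold change of 0.23 ± 0.07 (adjusted p = 0.0362). The groups did not overlap, but the call was lost when any of 5 libraries was left out (wild-type replicate 1 or 2, or any SPARC-deficient replicate, adjusted p 0.0673 to 0.135).

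Of the loading machinery, Tap1 rose and its partner Tap2 did not pass the test. Tap1 was at 70.3, 70.7 and 66.5 CPM against 50.6, 47.8 and 49.8 CPM (log2 fold change 0.49 ± 0.08, adjusted p = 0.000166). Tap2, the other chain of the transporter, was at 76.1, 77.2 and 77.2 CPM against 67.8, 68.7 and 62.8 CPM (0.21 ± 0.07, adjusted p = 0.051), and it was called at the same fold change by DESeq2 (adjusted p = 0.0367), with DESeq2's size factors (0.0485), in a fit of the 2 groups alone (0.0122) and in 6 fits without 1 library of the other groups (0.0243 to 0.0484). Tapbp, the loading bridge, was at 438, 430 and 455 CPM against 412, 423 and 392 CPM (0.11 ± 0.05, adjusted p = 0.187). The 3 SPARC-deficient libraries were the higher ones for all 3 genes, narrowly so for Tapbp.

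Both immunoproteasome subunits rose, including Psmb9, which shares its promoter stretch with Tap1. Psmb8 was at 102, 93.3 and 101 CPM against 74.5, 76.9 and 80.9 CPM (log2 fold change 0.35 ± 0.07, adjusted p = 0.00115). Psmb9 was at 11.9, 11.1 and 10.6 CPM against 7.81, 7.35 and 9.05 CPM (0.48 ± 0.12, adjusted p = 0.0104), and without wild-type replicate 2 its adjusted p was 0.077. Nlrc5, the transactivator, was at 22, 23 and 23.7 CPM against 16.6, 19.8 and 19.3 CPM (0.30 ± 0.11, adjusted p = 0.09), and it was called without the filter (0.0372), in a fit of the 2 groups alone (0.0142) and without isoliquiritigenin replicate 3 (0.048). The immunoproteasome's remaining subunit Psmb10, at 34.5 ± 1.14 against 35.3 ± 2.63 CPM (-0.03 ± 0.08, adjusted p = 0.868), had groups that overlapped, and so did Psmb5 (log2 fold change -0.01, adjusted p = 0.985).

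**Figure D2:**
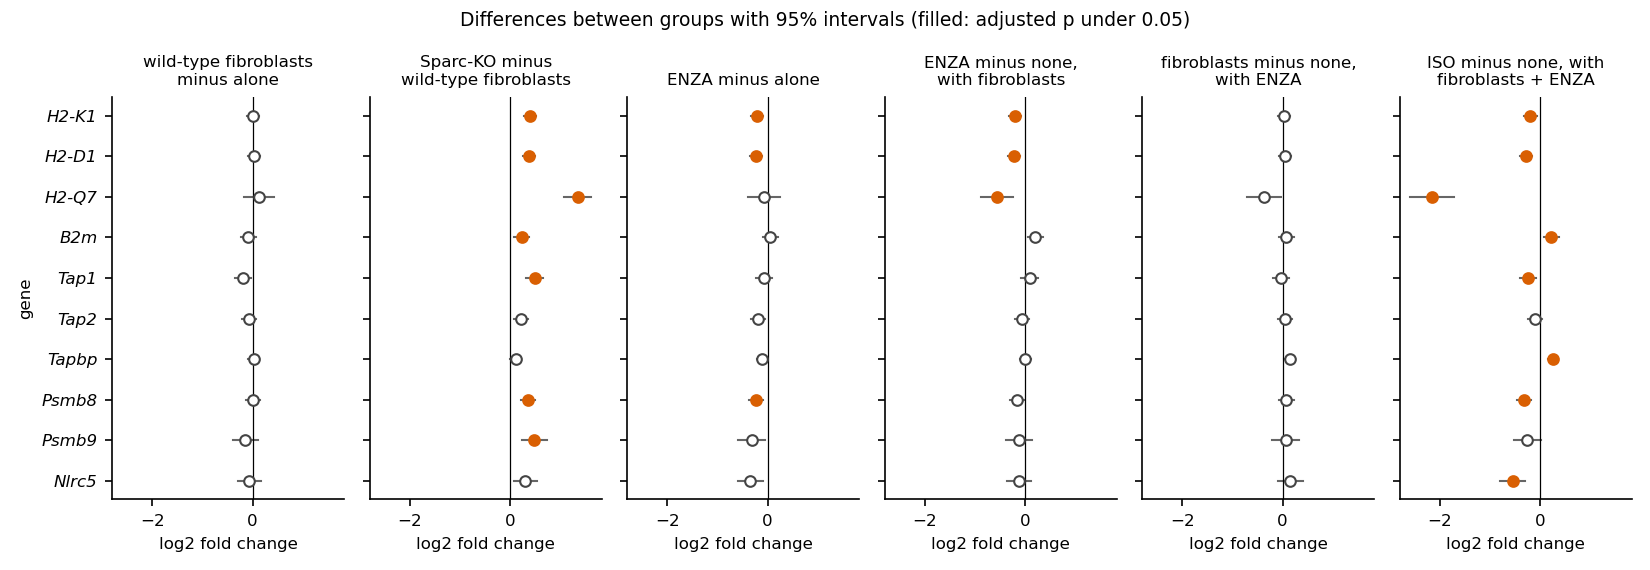
Log2 fold change (x axis) of each class I gene (y axis) in 6 comparisons, the first-named group minus the second; points are edgeR estimates, lines 95% intervals, and filled points have an adjusted p under 0.05 (Sparc-KO, SPARC-deficient; ENZA, enzalutamide; ISO, isoliquiritigenin). With SPARC-deficient fibroblasts 7 points are filled, all right of 0; with isoliquiritigenin 6 are filled left of 0 and 2, B2m and Tapbp, right of it.

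Lists of other genes of the pathway are set against the shares of all genes given above, 6.72% called higher and 4.79% lower, which the proteasome and loading lists did not much exceed. Among 15 other class I and class I-like heavy chain genes with enough reads, 5 rose and 1 fell, with H2-Q6, Mr1 (which presents vitamin B metabolites; log2 fold change 0.38 ± 0.07, adjusted p = 0.000412) and H2-T22 (0.26 ± 0.06, adjusted p = 0.00426) the risers of smallest p, and their median was 0.28. Of 20 further proteasome genes 1 rose, the activator subunit Psme1 (0.15 ± 0.05, adjusted p = 0.035), and of 15 further loading and trimming genes 1 fell, Sec61a1 (-0.16 ± 0.05, adjusted p = 0.0329). The trimming enzyme Erap1 (-0.12 ± 0.08, adjusted p = 0.36) and the tapasin relative Tapbpl (-0.09 ± 0.09, adjusted p = 0.566) were not called. In the list of class I transcription factors and interferon signalling genes, 7 of 33 rose and 1 fell, led by Socs3, a feedback inhibitor of cytokine signalling (0.90 ± 0.07, adjusted p = 3.6e-09), Stat3 (0.25 ± 0.04, adjusted p = 0.000403) and the TNF receptor Tnfrsf1a (0.24 ± 0.05, adjusted p = 0.00207). Irf1 (-0.01 ± 0.05, adjusted p = 0.946), which mediates the interferon response of class I, was not called. Of 50 interferon-stimulated genes 8 rose and 7 fell, with Zbp1 (0.90 ± 0.09, adjusted p = 6.89e-07) and Oas3 (0.92 ± 0.13, adjusted p = 3.61e-05) higher and Ifit1 (-0.50 ± 0.08, adjusted p = 0.000207) lower, and their median was 0.01.

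Of 10 tested genes whose products are read together with class I, 3 were called, in both directions, and 7 were not. Of all genes, 6.72% were called higher, 4.79% lower and 11.5% in either direction. The nectin family ligands Pvr (log2 fold change 0.49 ± 0.06, adjusted p = 1.52e-05) and Nectin2 (0.46 ± 0.07, adjusted p = 0.000161) rose, and Cd274, which encodes PD-L1, fell (-0.48 ± 0.15, adjusted p = 0.0423) from 3.34 ± 0.31 to 2.4 ± 0.137 CPM. Of 4 class II pathway genes with enough reads, H2-DMb1 rose (0.51 ± 0.11, adjusted p = 0.00201), and the class II transactivator Ciita had at most 1 count per library. The summed fibroblast markers, 15 genes with Tcf21 at 0, came to 44101 to 46720 CPM with SPARC-deficient and 40762 to 42484 CPM with wild-type fibroblasts. Of 13 tested, Col3a1, Thy1 and Pdpn were called higher, while Fap (log2 fold change -0.90, adjusted p = 0.00218) and Acta2 (-0.27, adjusted p = 0.0392) were called lower. Summed leukocyte markers were 5 to 8.47 CPM against 3.65 to 5.16 CPM. Their part in the class I result was not tested.

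Set against T23 cells alone, the SPARC-deficient co-culture gave a like picture, from the same 3 libraries. 5 of the 10 genes rose and none fell, where 6.1% of all genes were called higher, 3.65% lower and 9.74% in either direction. They were H2-Q7 (2.77-fold, log2 fold change 1.47 ± 0.13, adjusted p = 6.21e-08), H2-K1 (0.41 ± 0.06, adjusted p = 6.15e-05), H2-D1 (0.41 ± 0.06, adjusted p = 2.64e-05), Psmb8 (0.35 ± 0.07, adjusted p = 0.00118) and Tap1 (0.29 ± 0.08, adjusted p = 0.0187). B2m (0.15 ± 0.07, adjusted p = 0.231) and Psmb9 (0.33 ± 0.12, adjusted p = 0.0828) were not called here. The 3 SPARC-deficient libraries lay above the 3 of cells alone for all 10 genes, as for 17.2% of all genes, with 32.8% free of overlap in either direction. The Tap1 call was lost without replicate 1 or 2 of either group (adjusted p 0.0611 to 0.119), and a fit of these 2 groups alone called 9 genes.

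Enzalutamide without fibroblasts lowered both classical heavy chains and Psmb8. These 3 of the 10 genes fell and none rose, where 5.19% of all genes were called lower, 6.84% higher and 12% in either direction. H2-K1 was at 449, 416 and 383 CPM with enzalutamide and 483, 478 and 486 CPM without, a log2 fold change of -0.21 ± 0.06 (adjusted p = 0.0208). H2-D1 was at 419, 375 and 371 CPM against 449, 455 and 462 CPM (-0.23 ± 0.06, adjusted p = 0.0095). Psmb8 was at 73, 58.1 and 65.7 CPM against 77.6, 77.2 and 77.3 CPM (-0.23 ± 0.07, adjusted p = 0.0315). All 3 groups of values lay below those of untreated cells, as did 7 of the 10 genes and 14.1% of all genes, with 29.8% free of overlap in either direction.

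The remaining genes did not pass the test. Nlrc5 was at 15.3, 13.8 and 16.5 CPM against 18.1, 19.8 and 20.6 CPM (log2 fold change -0.35 ± 0.12, adjusted p = 0.0598), Psmb9 at -0.32 ± 0.13 (adjusted p = 0.106) and Tap2 at -0.19 ± 0.07 (adjusted p = 0.08). Nlrc5 was called with upper-quartile scaling (adjusted p = 0.0487), without the filter (0.00831), with the title numbering as a term (0.0394) and without enzalutamide replicate 3, enzalutamide co-culture replicate 1 or isoliquiritigenin replicate 3 (0.0304 to 0.048), and Tap2 without enzalutamide replicate 1 (-0.26, adjusted p = 0.0308). H2-Q7, at 4.28, 4.35 and 3.38 CPM against 4.08, 3.91 and 4.44 CPM, overlapped (-0.07 ± 0.16, adjusted p = 0.832), while its neighbours H2-Q4 (-0.50 ± 0.09, adjusted p = 0.00045) and H2-Q6 (from 1.93 ± 0.335 to 0.94 ± 0.155 CPM, adjusted p = 0.0143) fell. The heavy chain sum fell from 990 ± 8.05 to 842 ± 62.3 CPM (-0.23 ± 0.06, adjusted p = 0.00986). B2m was at 903, 1114 and 915 CPM, and its high value came from the library with 26.4% ribosomal RNA counts, which also had a mitochondrial share of 4.06% against 1.88 and 2.29% in its replicates. Without that library the Psmb8 call was lost (-0.16, adjusted p = 0.138), and leaving out any replicate of cells alone ended the calls of both H2-K1 (adjusted p 0.0542 to 0.0725) and Psmb8 (0.0825 to 0.0883), as did leaving out enzalutamide replicate 3 (0.0905 and 0.0609). The call of H2-D1 was kept in each case.

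Other lists went both ways with enzalutamide, where 6.84% of all genes were called higher, 5.19% lower and 12% in either direction. Of 50 interferon-stimulated genes none rose and 9 fell, led by Oas1a (log2 fold change -0.69 ± 0.10, adjusted p = 4.5e-05) and Oas2 (-0.58 ± 0.11, adjusted p = 0.00126). Of 15 loading and trimming genes 3 rose and none fell: the chaperones Calr (0.21 ± 0.06, adjusted p = 0.029) and Hsp90b1 (0.26 ± 0.07, adjusted p = 0.0232) and the glycoprotein folding sensor Uggt1 (0.20 ± 0.05, adjusted p = 0.0152). Of 20 proteasome genes Psma3 rose and Psmb4 and Psme1 fell. Cd274 (-0.69 ± 0.17, adjusted p = 0.00772) and the NKG2D ligand Ulbp1 (-0.57 ± 0.11, adjusted p = 0.00128) were lower as well.

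In the fibroblast co-culture, enzalutamide lowered the 3 heavy chains. They were the 3 of 10 genes called lower, none was called higher, and 3.49% of all genes were called lower, 3.7% higher and 7.18% in either direction. H2-K1 was at 405, 409 and 453 CPM against 475, 474 and 508 CPM in the untreated wild-type co-culture (log2 fold change -0.20 ± 0.06, adjusted p = 0.0411), and H2-D1 at 379, 394 and 425 CPM against 459, 473 and 463 CPM (-0.22 ± 0.06, adjusted p = 0.0168). H2-Q7 was at 2.9, 2.55 and 3.68 CPM against 3.96, 4.63 and 4.91 CPM (-0.57 ± 0.16, adjusted p = 0.0263). The groups of each gene did not overlap, which held below for 12.7% of all genes and in either direction for 25.8%. Psmb8 also lay below without overlap, at 67.3, 69.8 and 71.3 CPM, but was not called (-0.16 ± 0.07, adjusted p = 0.187). B2m, at 902, 1096 and 1072 CPM, had the opposite sign (0.20 ± 0.07, adjusted p = 0.103) and was called without replicate 1 of the enzalutamide co-culture (0.28, adjusted p = 0.0154) or without enzalutamide replicate 2 (0.20, adjusted p = 0.014). With the title numbering as a term none of the 3 calls was kept (adjusted p 0.0617 to 0.205), although the log2 fold changes were no smaller, at -0.26 for H2-K1, -0.30 for H2-D1 and -0.64 for H2-Q7. Replicate 1 alone shares the numbering of the untreated co-culture. H2-K1 was also lost in the fit with replicate number as a block (adjusted p = 0.0573). Without replicate 1 or 2 of the enzalutamide co-culture, or replicate 2 of the wild-type one, all 3 calls were lost, and without wild-type replicate 3 those of H2-K1 and H2-Q7 were (adjusted p 0.068 to 0.179). The H2-K1 call was further lost without any replicate of cells alone, wild-type replicate 1 or SPARC-deficient replicate 2 (adjusted p 0.0539 to 0.0762).

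Whether the enzalutamide response differed with and without fibroblasts was tested by the interaction. No class I gene was called by edgeR's quasi-likelihood test or DESeq2, and 0.0221% of all genes were called by the former, 0.0147% higher and 0.00735% lower. 1 gene, H2-Q7, had an unadjusted p under 0.05 (difference of log2 fold changes -0.50 ± 0.22, adjusted p = 0.865). For H2-K1 and H2-D1 the difference was 0.01 in both, with 95% intervals of -0.16 to 0.19 and -0.16 to 0.17. Under enzalutamide, fibroblasts against none likewise gave no call among the 10 genes by either tool, where 2.08% of all genes were called, 1.14% higher and 0.941% lower, and 2 genes with an unadjusted p under 0.05, H2-Q7 (-0.38 ± 0.16, adjusted p = 0.299) and Tapbp (0.14 ± 0.05, adjusted p = 0.199). Tapbp was the 1 of the 10 genes whose groups did not overlap, above, against 7.12% of all genes above, 7.74% below and 14.9% in all. In that same comparison 23 of 50 interferon-stimulated genes rose and none fell, among them Rtp4 (0.56 ± 0.07, adjusted p = 0.000242), Ifit1 (0.55 ± 0.08, adjusted p = 0.000637) and Oas2 (0.74 ± 0.11, adjusted p = 0.000637), with a median of 0.39 against 0.05 for the class I genes. With the title numbering as a term, 11 of all genes were called in this comparison in place of 283.

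Isoliquiritigenin, added to enzalutamide and fibroblasts, split the class I genes. The 3 heavy chains, Tap1, Psmb8 and Nlrc5 fell, while B2m and Tapbp rose, so 6 were called lower and 2 higher where 13.6% and 12.9% of all genes were, 26.5% in all. The median log2 fold change of the 10 genes was -0.25. The same 8 genes had groups that did not overlap, 6 below and 2 above, against 20.6% and 19.9% of all genes, 40.5% in all.

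H2-Q7 fell most. Its levels were 0.538, 0.782 and 0.759 CPM with isoliquiritigenin, from 15 or more reads each, against 2.9, 2.55 and 3.68 CPM without, 4.43-fold lower (log2 fold change -2.15 ± 0.21, adjusted p = 7.59e-08). H2-Q5 (-2.23 ± 0.36, adjusted p = 5.32e-05), H2-Q6 (-1.48 ± 0.30, adjusted p = 0.000681) and H2-Q4 (-0.39 ± 0.09, adjusted p = 0.00138) fell with it, subject to the same uncertainty of shared sequence. H2-K1 was at 348, 384 and 372 CPM against 405, 409 and 453 CPM (-0.20 ± 0.06, adjusted p = 0.0161; lost without isoliquiritigenin replicate 1 or enzalutamide co-culture replicate 3, adjusted p 0.0919 and 0.116), and H2-D1 at 309, 340 and 334 CPM against 379, 394 and 425 CPM (-0.29 ± 0.06, adjusted p = 0.000492). The heavy chain sum fell from 863 ± 50.8 to 726 ± 37.5 CPM (-0.25 ± 0.06, adjusted p = 0.00219). The fall was not shared by all heavy chain genes. Among 15 other class I and class I-like heavy chain genes with enough reads, 2 were called higher and 3 lower. Their median log2 fold change was -0.04. All 26 such genes in the count files summed to 408 ± 23.7 CPM with isoliquiritigenin and 387 ± 5.33 CPM without, and the groups overlapped. Among those called higher, Cd1d1, which presents lipids to NKT cells, rose from 2.04 ± 0.241 to 5.39 ± 1.37 CPM (1.40 ± 0.18, adjusted p = 2.7e-06).

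Nlrc5, which drives transcription of the heavy chain, Tap1 and B2m genes, was at 10.8, 9.89 and 14.3 CPM against 20.1, 15 and 15.9 CPM (log2 fold change -0.55 ± 0.12, adjusted p = 0.00123). Psmb8 was at 50.2, 58.7 and 57.9 CPM against 67.3, 69.8 and 71.3 CPM (-0.32 ± 0.07, adjusted p = 0.00103). Tap1 was at 38, 47 and 47.7 CPM against 51.2, 49.5 and 56.4 CPM (-0.25 ± 0.08, adjusted p = 0.0232). Without isoliquiritigenin replicate 1 the log2 fold change of Tap1 was -0.15 (adjusted p = 0.18), and without replicate 3 of the enzalutamide co-culture -0.19 (adjusted p = 0.128). Psmb9, at 5.31, 7.36 and 6.07 CPM against 7.85, 6.3 and 8.05 CPM (-0.26 ± 0.13, adjusted p = 0.151), and Tap2 (-0.11 ± 0.07, adjusted p = 0.277) overlapped.

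Tapbp and B2m formed the rising pair. Tapbp was at 464, 506 and 496 CPM with isoliquiritigenin and 387, 428 and 413 CPM without (log2 fold change 0.25 ± 0.05, adjusted p = 0.000622). B2m was at 1190, 1179 and 1215 CPM against 902, 1096 and 1072 CPM (0.22 ± 0.07, adjusted p = 0.0242). Among the libraries of the second title numbering, replicates 2 and 3 of the enzalutamide co-culture against all with isoliquiritigenin, the B2m difference was 0.14 (adjusted p = 0.169), and with the numbering as a term it was 0.14 (adjusted p = 0.174). Leaving out any isoliquiritigenin replicate also ended the B2m call (adjusted p 0.0507 to 0.0655). The mitochondrial share of counts was 1.55, 2.71 and 2.7% without and 2.8, 3.68 and 3.77% with isoliquiritigenin, and its part in the B2m result was not tested. Over B2m, the H2-K1 and H2-D1 level per kb came to 0.182 ± 0.00972 with isoliquiritigenin, 0.252 ± 0.0215 with enzalutamide and fibroblasts, 0.31 ± 0.00426 in cells alone and 0.372 ± 0.0104 with SPARC-deficient fibroblasts.

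**Figure D3:**
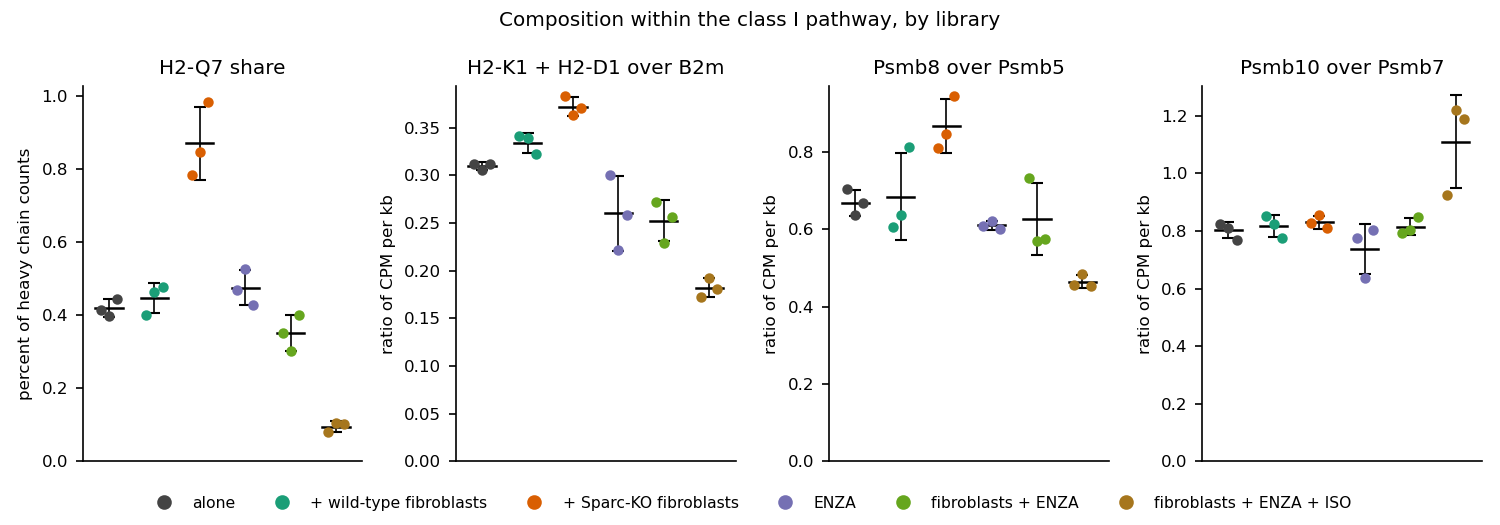
Within-pathway composition by library (y axes from 0): H2-Q7 as percent of all H2-K, H2-D and H2-Q counts, and 3 ratios of CPM per kb; points are libraries, bars means, whiskers SD of 3, colours the 6 groups (Sparc-KO, SPARC-deficient; ENZA, enzalutamide; ISO, isoliquiritigenin). The H2-Q7 share is highest with SPARC-deficient fibroblasts (mean 0.87%) and lowest with isoliquiritigenin (0.095%), and Psmb8 over Psmb5 is lowest with isoliquiritigenin (0.464) while Psmb10 over Psmb7 is highest there (1.11).

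The immunoproteasome subunits parted under isoliquiritigenin. Psmb10 rose, at 37.8, 46.8 and 45.9 CPM against 33.6, 35.5 and 36.5 CPM (log2 fold change 0.30 ± 0.08, adjusted p = 0.00499), while Psmb8 fell. Their standard counterparts were nearly level, with Psmb5 at 0.09 (adjusted p = 0.6), Psmb6 at 0.01 (adjusted p = 0.916) and Psmb7 called slightly lower at -0.14 ± 0.05 (adjusted p = 0.0466). In CPM per kb, Psmb8 over Psmb5 was 0.464 ± 0.0168 with isoliquiritigenin and 0.626 ± 0.0927 without, and Psmb10 over Psmb7 was 1.11 ± 0.162 and 0.815 ± 0.0288. Of the 15 loading and trimming genes, Tapbpl (0.38 ± 0.08, adjusted p = 0.00129) and Erap1 (0.23 ± 0.08, adjusted p = 0.0257) rose and Ganab (-0.20 ± 0.06, adjusted p = 0.00889) fell. Of all genes, 12.9% were called higher, 13.6% lower and 26.5% in either direction. Psme1 (-0.08 ± 0.05, adjusted p = 0.262) and Psme2 (-0.11 ± 0.06, adjusted p = 0.146) were not called.

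Interferon-stimulated genes and class I genes had medians of opposite sign under isoliquiritigenin. Of 50 such genes 31 rose and 2 fell, with a median log2 fold change of 0.29, among them Ifit1 (0.67 ± 0.08, adjusted p = 9.06e-07), Iigp1 (0.73 ± 0.09, adjusted p = 2.64e-06) and Irgm2 (0.59 ± 0.08, adjusted p = 4.53e-06). In the signalling list 6 of 33 rose and 6 fell. Both lists stand beside 12.9% of all genes called higher, 13.6% lower and 26.5% in either direction. The interferon gamma receptor chain Ifngr1 fell from 148 ± 3.6 to 79.7 ± 6.82 CPM (-0.89 ± 0.07, adjusted p = 1.16e-09), and Irf1 from 100 ± 2.6 to 76.8 ± 1.43 CPM (-0.39 ± 0.05, adjusted p = 2.27e-06). Nfkb1, which encodes an NF-kB subunit, fell from 153 ± 2.27 to 125 ± 5.53 CPM (-0.30 ± 0.04, adjusted p = 1.61e-05). Of the ligands, Ulbp1 (-0.61 ± 0.12, adjusted p = 0.000427), Raet1d (-0.36 ± 0.11, adjusted p = 0.0214) and Nectin2 (-0.43 ± 0.07, adjusted p = 0.000112) fell. The summed fibroblast markers were 30459 to 31826 CPM with isoliquiritigenin and 37945 to 39437 CPM without, 9 of 13 tested called lower and 2 higher, and their part in the class I result was not tested.

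**Figure D4:**
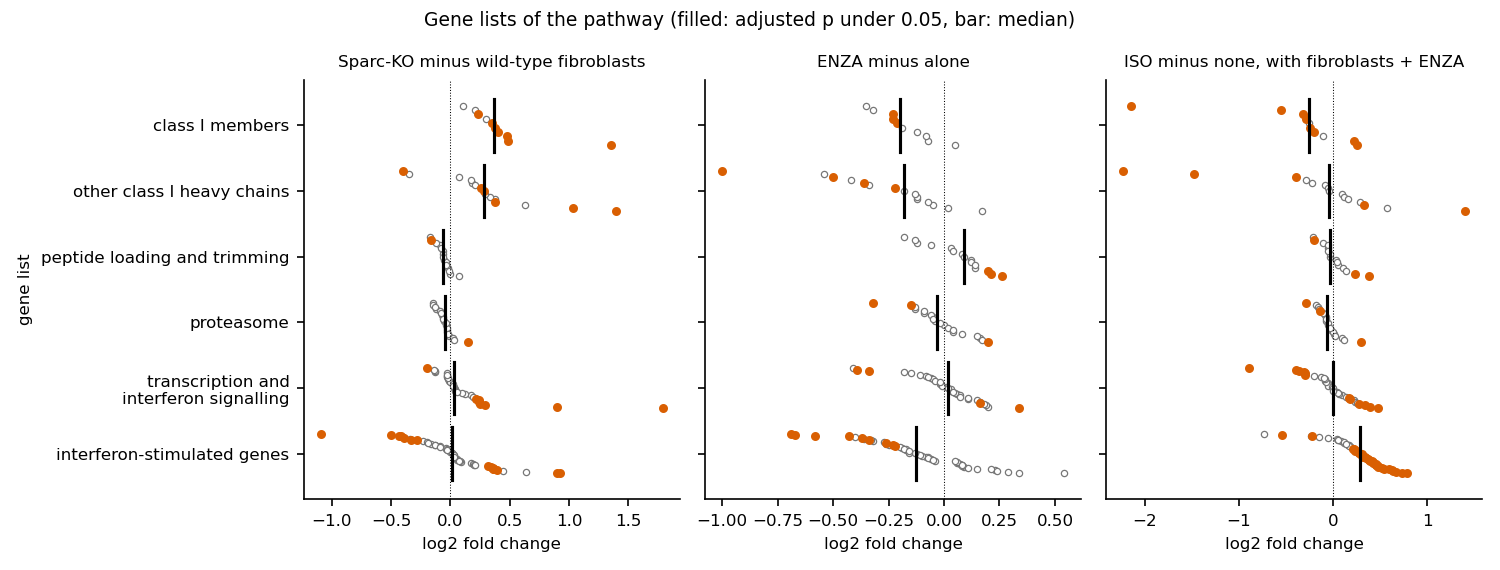
Log2 fold change (x axis, a scale per panel) of each tested gene in the class I group and 5 lists of related genes (y axis) in 3 comparisons; points are genes, spread vertically for sight, filled where the adjusted p is under 0.05, and bars mark medians (Sparc-KO, SPARC-deficient; ENZA, enzalutamide; ISO, isoliquiritigenin). With isoliquiritigenin the median of the class I genes is -0.25 and that of the interferon-stimulated genes 0.29.

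Across the 18 libraries most of the class I genes varied together, with B2m and Tapbp apart. As a description, the log2 levels of H2-K1 and H2-D1 had a Pearson r of 0.99, and those of Tap1 and Psmb9, which share the promoter stretch printed above, 0.87. The latter value does not stand out. Psmb9 had a higher r with H2-K1 (0.94), H2-D1 (0.91), Psmb8 (0.91) and Tap2 (0.88), which do not share that stretch. Its r was lower with H2-Q7 (0.83), Nlrc5 (0.76), Tapbp (-0.10) and B2m (-0.27). Against the mean of the other 9 genes, r was 0.97 for H2-K1, 0.95 for H2-D1, 0.93 for Psmb8, 0.91 for Psmb9, 0.89 for Tap2, 0.87 for Tap1, 0.80 for H2-Q7 and 0.76 for Nlrc5. It was -0.09 for Tapbp and -0.29 for B2m, while B2m and Tapbp had an r of 0.70 with each other. These libraries share groups, so the values carry group differences. Of 10217 other tested genes of at least 5 CPM, the 5 whose pattern was most like the mean of the class I genes were Ptpn5 (r = 0.949), Adm (0.942), Prdx5 (0.936), Psme1 (0.936) and Stc1 (0.932).

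The other genes of the MHC region had medians near 0. Of 59 other tested genes in chr17:33915899-35443773, 4 were called higher and 2 lower with SPARC-deficient against wild-type fibroblasts, which is 10.2% beside 11.5% of all genes, and their median log2 fold change was 0.01. With isoliquiritigenin 7 were higher and 14 lower, which is 35.6% beside 26.5%, and the median was 0.00. These 59 genes include the heavy chain genes H2-K2, H2-Q4, H2-Q5 and H2-Q6. H2-Q5 and H2-Q6 were among those called higher with SPARC-deficient fibroblasts. H2-Q4, H2-Q5 and H2-Q6 were among those called lower with isoliquiritigenin. B2m lies within Patl2 on the opposite strand, Tapbp overlaps Zbtb22 on the same strand over 3422 bases, and Tap1 and Psmb9 overlap by 212 bases on opposite strands. The libraries are stranded, but the strand setting of the counting is not stated in the sources used here, so reads in these overlaps may be lost or shared.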

How the data were processed

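The authors deposited raw counts per gene, one table per library, with Ensembl identifiers. Per the submitters' processing notes, reads were handled with STAR 2.6.1d, featureCounts 2.0, cutadapt 2.9 and DESeq2 on the build GRCm38, after bcl2fastq 2.20.0.422 and with FastQC 0.11.9; their settings are not given in the sources used here. Symbols and coordinates came from GENCODE M21, which named 55227 of 55487 identifiers; the other 260 held 0.00552% of the counts.

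The counts of all 18 libraries were filtered with filterByExpr (minimum count 10) and fitted with TMM scaling in edgeR 4.0.16 (R 4.3.3), 1 mean per group, which leaves 12 residual degrees of freedom. The biological coefficient of variation was 7.03%. The 7 comparisons and 1 interaction are two-sided quasi-likelihood F tests, Benjamini-Hochberg adjusted over 13600 genes and called under 0.05. CPM are scaled by TMM library sizes, and a count of 0 (at most 3 counts) allows 0.108 to 0.272 CPM, for counting error only. The script was tested on simulated data. Members and gene lists were chosen with earlier results of these data known. The text names the 10 genes, up to 3 called genes per list and comparison by smallest p, Psmb5, Psmb6, Psmb7, Psmb10, Psme1, Psme2, Tapbpl, Erap1, Irf1 and the 5 genes most alike. One further gene of that rule is not reported here. H2-Q4, H2-Q5 and H2-Q6 outside that rule, and Ifng, Tnf, Ifnb1 and Ciita, were named after their values were seen. Alternatives were other scalings, no filter, DESeq2 1.42.0, a replicate block, a term for the title numbering, fits of only the groups compared, the heavy chain sum, and leaving out each library.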

Additional observations from a re-analysis of the deposited data

How the results depend on the processing

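Of 26 calls of single class I genes, 15 were kept under all 25 alternatives and 11 were lost under at least 1; no call changed direction. Calls gained under some alternatives were those of Tap2 and Nlrc5 with SPARC-deficient against wild-type fibroblasts, Nlrc5 and Tap2 with enzalutamide alone and B2m with enzalutamide in co-culture, and B2m, Tapbp, Psmb9 and Nlrc5 with SPARC-deficient fibroblasts against cells alone. The calls kept throughout were those of H2-K1, H2-D1, H2-Q7 and Psmb8 in both comparisons of the SPARC-deficient co-culture, Tap1 against the wild-type co-culture, H2-D1 with enzalutamide alone, and H2-D1, H2-Q7, Tapbp, Psmb8 and Nlrc5 with isoliquiritigenin. Fitting only the groups compared gave 9 class I calls for SPARC-deficient fibroblasts against cells alone (5 with all groups) and 1 for enzalutamide alone (3 with all groups). With the title numbering as a term, enzalutamide in co-culture gave 0 calls in place of 3. Its heavy chain sum was then -0.29 (adjusted p = 0.0835), against -0.22 (adjusted p = 0.0183) in the main fit. That sum was also not called without wild-type replicate 3 (adjusted p = 0.0831) or enzalutamide co-culture replicate 1 (0.0829) or 2 (0.0962). Leaving out 1 library at a time, class I calls ranged from 5 to 9 (SPARC-deficient against wild-type), 4 to 5 (against alone), 1 to 4 (enzalutamide alone), 0 to 4 (enzalutamide in co-culture) and 5 to 8 (isoliquiritigenin), and the heavy chain sum of enzalutamide in co-culture from -0.27 to -0.19. The fewest isoliquiritigenin calls, 5, came without its replicate 1. The replicate block left 7, 5, 3, 2 and 8 calls in those comparisons and the heavy chain sum of SPARC-deficient against wild-type at 0.39, and ended no call but that of H2-K1 named above. The labels do not say that equal replicate numbers pair libraries. In none of 15 pairs of groups did every same-number correlation exceed 0.1 (range -0.144 to 0.0982). Why the H2-K1 call was lost was not tested. Over all genes, calls outside leave-one-out ranged from 56 to 336 for wild-type fibroblasts (70 as reported), 1441 to 1997 for SPARC-deficient against wild-type (1566), 1216 to 2188 for SPARC-deficient against alone (1325), 740 to 1734 for enzalutamide alone (1636), 214 to 1120 in co-culture (977), 11 to 541 for fibroblasts under enzalutamide (283), 2955 to 3601 for isoliquiritigenin (3599) and 0 to 99 for the interaction (3). Leaving out 1 library at a time, they ranged from 11 to 157 for wild-type fibroblasts, 857 to 2085 for SPARC-deficient against wild-type (1566), 743 to 1724 against alone, 901 to 1710 for enzalutamide alone, 550 to 1423 in co-culture, 83 to 419 for fibroblasts under enzalutamide, 2522 to 4225 for isoliquiritigenin (3599) and 0 to 12 for the interaction, so the shares of all genes printed beside the class I counts move with them. The cause of these shifts was not tested. H2-Q7, with 15 to 291 reads per library, is the gene most limited by depth.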
